A study of Homo sapiens with 12 samples.

Results

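SEMA5A, SEMA6B, EFNA2, PTPRS and BASP1 were followed through RNA-seq counts of the human keratinocyte line HaCaT. They are 5 of the 61498 gene entries counted, and were taken because they belong to axon guidance or growth cone families and lie on chromosome stretches where gene names and reads match. They were also chosen by their counts in knockdown against control cells, so differences between the cell derivatives are given as descriptions with no test. The cells were 3 knockdown derivatives, carrying a short hairpin RNA against MLL1 (shMLL1; the enzyme encoded by KMT2A that methylates lysine 4 of histone H3), UTX (shUTX; encoded by KDM6A, which removes methyl groups from lysine 27 of histone H3) or NRF2 (shNRF2; encoded by NFE2L2, a transcription factor of antioxidant genes), and 1 derivative with a control hairpin (shControl), whose genotype the labels give as WT. Each was exposed for 24 h to 100 µM hydrogen peroxide (H2O2) or to 25 µg/mL cerium oxide nanoparticles (CeO2), or left untreated. That gives 12 libraries, 1 for each combination. With only 1 derivative per hairpin, silencing and any other way in which the derivatives differ cannot be told apart. The labels do not say whether libraries came from separate cultures, so p-values measure only the spread among these libraries.

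Axon guidance genes encode the cues and receptors that steer the tip of a growing nerve fibre, the growth cone. Semaphorins and ephrins are cues read by plexins and neuropilins or by Eph receptors, and receptor phosphatases of the LAR type read proteoglycans of the surrounding matrix. The same families are used outside the nervous system in cell adhesion and migration, epidermis included. SEMA5A and SEMA6B are semaphorins anchored in the membrane. EFNA2 is a lipid-anchored ephrin, PTPRS is a LAR-type receptor phosphatase that binds chondroitin and heparan sulfate chains, and BASP1 is a lipid-modified protein of the inner membrane face that is abundant in growth cones and also acts as a transcriptional corepressor.

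SEMA5A (ENSG00000112902) lies on the minus strand of chromosome 5, from 9035026 to 9546075 in GRCh38 by the GENCODE 29 annotation, and BASP1 (ENSG00000176788) on the plus strand of the same arm, from 17065598 to 17276843. SEMA6B (ENSG00000167680) and PTPRS (ENSG00000105426) lie on the minus strand of chromosome 19, from 4542593 to 4559808 and from 5158495 to 5340803, and EFNA2 (ENSG00000099617) lies there on the plus strand, from 1286154 to 1300237. SEMA6B and EFNA2 overlap no other annotated entry. The entries that overlap SEMA5A, PTPRS and BASP1 reached means of at most 0.0522, 1.43 and 0.0242 CPM (counts scaled to a library total of 1e6), so little of what the files counted was assigned to them.

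RefSeq starts of these genes are shown because the silenced proteins are chromatin and transcription factors, which act at promoters. The sequences are the 250 bases before the RefSeq gene start, from the GRCh38.p14 promoter table, which holds 4 of the 5 genes. They are written 5′ to 3′ on the gene's own strand, with each CpG dinucleotide in capitals: SEMA5A at chr5:9546076-9546325 (minus strand), PTPRS at chr19:5340813-5341062 (minus strand), BASP1 at chr5:17216573-17216822 (plus strand) and EFNA2 at chr19:1285623-1285872 (plus strand). The annotations place the start of BASP1 differently, so its window lies inside the gene as GENCODE 29 draws it.
SEMA5A: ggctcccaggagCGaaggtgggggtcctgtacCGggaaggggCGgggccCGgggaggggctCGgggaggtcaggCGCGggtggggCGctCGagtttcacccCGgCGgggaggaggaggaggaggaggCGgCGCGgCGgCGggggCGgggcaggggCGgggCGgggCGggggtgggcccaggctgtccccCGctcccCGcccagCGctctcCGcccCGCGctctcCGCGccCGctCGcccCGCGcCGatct
PTPRS: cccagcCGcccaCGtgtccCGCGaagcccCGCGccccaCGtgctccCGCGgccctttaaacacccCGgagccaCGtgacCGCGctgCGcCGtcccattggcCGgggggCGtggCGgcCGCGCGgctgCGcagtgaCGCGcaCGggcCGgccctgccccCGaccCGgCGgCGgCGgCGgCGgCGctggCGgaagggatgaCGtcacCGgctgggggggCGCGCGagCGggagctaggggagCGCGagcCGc
BASP1: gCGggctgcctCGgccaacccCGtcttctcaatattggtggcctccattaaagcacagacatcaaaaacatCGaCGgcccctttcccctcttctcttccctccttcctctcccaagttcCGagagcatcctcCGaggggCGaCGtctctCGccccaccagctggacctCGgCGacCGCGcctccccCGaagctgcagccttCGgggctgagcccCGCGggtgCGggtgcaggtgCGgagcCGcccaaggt
EFNA2: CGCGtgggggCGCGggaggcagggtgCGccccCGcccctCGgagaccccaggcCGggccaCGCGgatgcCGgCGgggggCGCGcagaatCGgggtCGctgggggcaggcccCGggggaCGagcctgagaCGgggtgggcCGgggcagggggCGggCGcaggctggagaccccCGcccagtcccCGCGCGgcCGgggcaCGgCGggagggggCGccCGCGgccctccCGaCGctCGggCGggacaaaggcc

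All 4 windows hold more CpG than the median of 11 over 34786 promoters of the same length. PTPRS holds 44, a number reached by 0.765% of promoters, EFNA2 36 (4.86%), SEMA5A 33 (8.16%) and BASP1 21 (30.2%). The GC content is 84% in EFNA2, 82% in SEMA5A, 80.8% in PTPRS and 65.6% in BASP1. A few short motifs, chosen after the sequences were seen, were searched on both strands. The E-box CACGTG occurs 3 times in the PTPRS window and in none of the others, and in 6.31% of all promoters. The PTPRS window also holds 1 copy of TGACGTCA, the cAMP response element (1.64% of promoters), and 1 of TGACNNNGC, the core of the antioxidant response element that NRF2 binds (10.9%); this copy overlaps one of the E-boxes. GGGCGG, the box of the SP1 family, occurs 7 times in SEMA5A, 4 times in EFNA2 and once each in PTPRS and BASP1, and in 42.6% of promoters. TATAAA, the TATA box, occurs in none of the 4 windows and in 10.8% of promoters. These are matches of letters only.

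Total counts ran from 5388335 to 7670446 per library. Many genes that every cell uses are at or near 0 under their own names: of 692 such genes, 440 had a mean under 1 CPM. Names were therefore read only on 4 stretches (chromosomes 5, 9, 11 and 19; 1357 entries, 435 of them past the filter on low counts) drawn around runs of such genes that all reach 30 CPM. Coding genes on these stretches that did not define them reached 1 CPM in 66.81% of 461 cases, against 33.01% outside. The 3 nearest genes of that panel on each side of every member reached 30 CPM, which follows from how the stretches were drawn and is no separate support. On chromosome 5 the panel is sparse, with 8 genes from 218241 to 44820428. Of coding genes within 500 kb, 0 of 1 reached 1 CPM for SEMA5A and 2 of 18 for BASP1. The same count was 22 of 29 for SEMA6B, 16 of 22 for PTPRS and 36 of 43 for EFNA2. The silenced genes lie outside the stretches. Their entries held, with H2O2, with CeO2 and untreated, 565, 231 and 228 counts of KMT2A in shMLL1 against 3539, 3396 and 3283 in shControl. KDM6A held 0, 1 and 1 count in shUTX against 5, 6 and 6 in shControl, and NFE2L2 0 counts in all 3 shNRF2 libraries against 12, 16 and 1 in shControl. Other derivatives were low as well for some of these: KMT2A held 1969, 1897 and 1711 counts in shUTX, and NFE2L2 held 1, 3 and 1 in shMLL1 and 1, 4 and 1 in shUTX. KDM6A held 4, 4 and 5 counts in shMLL1 and 4, 5 and 4 in shNRF2. With so few counts even in shControl, and names outside the stretches not trusted, these entries cannot show how far KDM6A or NFE2L2 was silenced. Of 11 keratinocyte markers, 2 lie on the stretches, where AQP3 averaged 271 CPM and TINCR 32.6 CPM. Outside them KRT10 averaged 134 CPM, KRT14 62.1, KRT1 7.44, CDH1 0.558 and TP63 0.37, and KRT5, ITGA6, ITGB4 and DSG3 are listed at 0. The 2 on the stretches summed to 266 to 292 CPM in shMLL1, 244 to 288 in shUTX, 376 to 480 in shNRF2 and 208 to 272 in shControl. Of 10 neuron markers, 2 lie there, ELAVL2 (67.3 CPM) and UNC13B (75.2 CPM), with summed levels of 141 to 170 CPM in shMLL1, 123 to 130 in shUTX, 115 to 139 in shNRF2 and 126 to 176 in shControl. Neuron markers outside the stretches were mixed: RBFOX3 averaged 111 CPM, ELAVL3 45.9 and TUBB3 17.1, while SNAP25, DLGAP1 and MAP2 averaged 0.0242, 0.0241 and 0.0117. SYP and ELAVL4 are listed at 0. None of 7 fibroblast markers lies on the stretches, and their sum stayed at or below 3.35 CPM in every library.

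The untreated shControl library stands apart, and the untreated shMLL1 library lies next to it. On the second principal component the shControl libraries with H2O2 and CeO2 lie at -6.48 and -14.7 and the untreated one at 32.97; the shMLL1 libraries lie at 2.55, 1.77 and 23.6 in the same order. Relative to the mean of the libraries, 303 coding genes on the stretches, split by length into 3 equal groups, had a median log2 level of 0.17 for the shortest group and -0.07 for the longest in untreated shMLL1, and of 0.41 and 0.10 in untreated shControl. Main values are given below also without the untreated shControl library.

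Of the 5 genes, 4 were well covered in these cells and EFNA2 was at the limit of detection. EFNA2 had 1 count each in the H2O2 and untreated shNRF2 libraries and 0 in the other 10, where a count of 0 allows up to 0.391 to 0.557 CPM, the worth of 3 counts. It did not pass the filter of 1 CPM in at least 3 libraries and entered no test. Such limits and the intervals below cover counting error only. By level per length of transcript, averaged over the 3 shControl libraries, BASP1 stood at 218 CPM per kb, PTPRS at 63.2, SEMA6B at 19.04 and SEMA5A at 18.2. Library sizes were scaled by TMM, and all levels from here on are such normalised CPM.

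SEMA5A was lowest in shMLL1. With H2O2, with CeO2 and untreated, it had 46.0, 36.7 and 31.7 CPM in shMLL1, 119, 92.6 and 86.5 CPM in shUTX, 230.5, 222.1 and 216.1 CPM in shNRF2, and 230, 270.4 and 160.8 CPM in shControl. The shMLL1 libraries lay below every shUTX library, and these below every library of shNRF2 and shControl, which overlapped. The mean was 38.2 ± 7.24 CPM in shMLL1, 99.4 ± 17.3 in shUTX, 222.9 ± 7.23 in shNRF2 and 220.4 ± 55.4 in shControl (SD over the 3 treatments, n = 3 libraries each). Averaged over matched treatments, SEMA5A was 5.71-fold lower in shMLL1 than in shControl (log2 -2.51 ± 0.32 SD) and 2.19-fold lower in shUTX (log2 -1.13 ± 0.36), and in shNRF2 the log2 difference was 0.05 ± 0.36. In bulk RNA, fewer cells that express a gene and less of its RNA per cell cannot be told apart.

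SEMA6B was lowest in shUTX. It had 7.03, 8.20 and 8.65 CPM with H2O2, with CeO2 and untreated in shUTX, 39.7, 40.6 and 46.3 CPM in shMLL1, 44.1, 51.6 and 44.4 CPM in shNRF2, and 71.6, 82.7 and 97.8 CPM in shControl. The shUTX libraries, with 40, 52 and 45 counts, lay far below all others. The shMLL1 and shNRF2 libraries overlapped each other and lay below every shControl library. Means were 7.96 ± 0.834 CPM in shUTX, 42.2 ± 3.59 in shMLL1, 46.7 ± 4.28 in shNRF2 and 84.0 ± 13.2 in shControl (SD, n = 3 each). That is 10.5-fold lower in shUTX than in shControl (log2 -3.39 ± 0.09), 1.98-fold lower in shMLL1 (log2 -0.99 ± 0.12) and 1.79-fold lower in shNRF2 (log2 -0.84 ± 0.26).

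**Figure D1:**
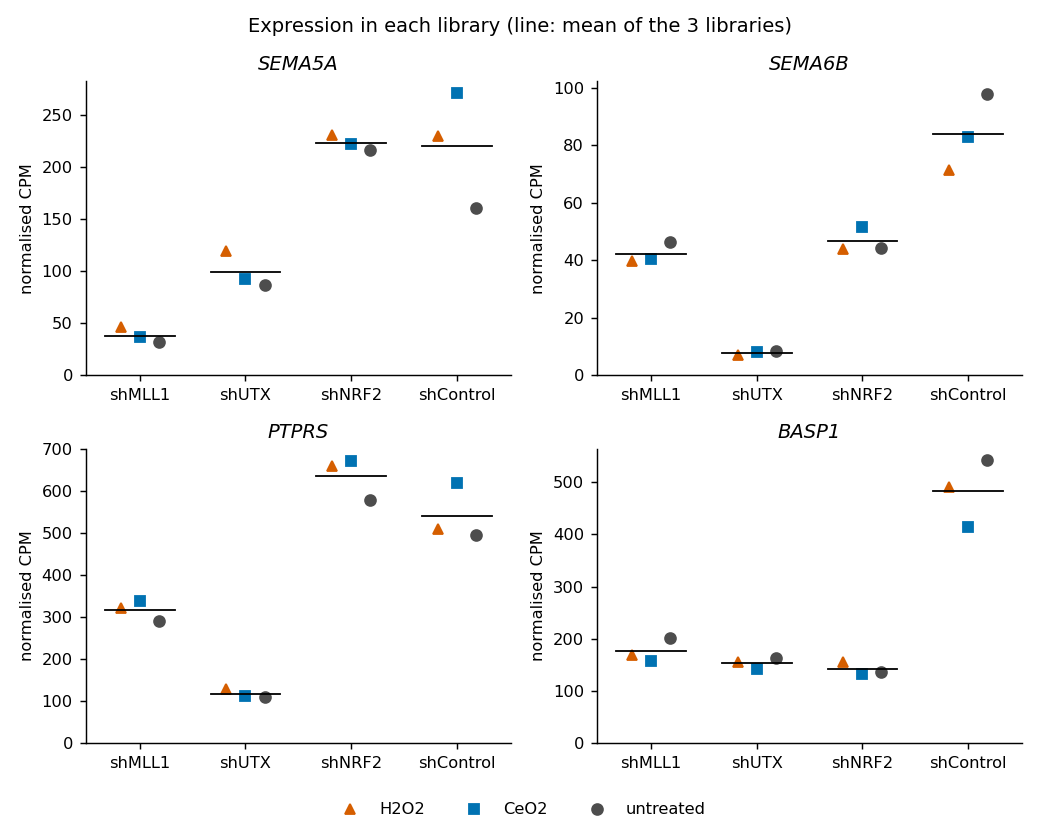
Normalised CPM (vertical axes from 0) of SEMA5A, SEMA6B, PTPRS and BASP1 in each of the 12 libraries, by derivative; triangles are H2O2, squares CeO2, circles untreated, and lines the mean of the 3 libraries. SEMA5A is lowest in shMLL1, SEMA6B and PTPRS are lowest in shUTX, and BASP1 is lower in all 3 knockdown derivatives than in shControl.

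PTPRS, the receptor, followed SEMA6B in being lowest in shUTX but differed from it in shNRF2. It had 129.6, 112.5 and 110.5 CPM with H2O2, with CeO2 and untreated in shUTX, 322, 339 and 291 CPM in shMLL1, 659.4, 672.4 and 578.4 CPM in shNRF2, and 509.7, 618.9 and 495.3 CPM in shControl. The shUTX libraries lay below all shMLL1 libraries, and these below all others; shNRF2 and shControl overlapped. Its mean was 117.5 ± 10.5 CPM in shUTX, 317.4 ± 24.3 in shMLL1, 636.7 ± 50.9 in shNRF2 and 541.3 ± 67.6 in shControl (SD, n = 3 each). Against shControl this is 4.60-fold lower in shUTX (log2 -2.20 ± 0.24) and 1.70-fold lower in shMLL1 (log2 -0.77 ± 0.10), with a log2 difference of 0.24 ± 0.13 in shNRF2.

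BASP1, the growth cone protein, was lower in all 3 knockdown derivatives by similar amounts. It had 169.5, 158.2 and 201.9 CPM with H2O2, with CeO2 and untreated in shMLL1, 155.8, 142.7 and 162.5 CPM in shUTX, 155.8, 132.8 and 137.4 CPM in shNRF2, and 491.3, 414.1 and 543.1 CPM in shControl. The ranges of shMLL1 and shUTX overlapped, as did those of shUTX and shNRF2, and the lowest shControl library lay above every knockdown library. The means were 176.5 ± 22.7 CPM in shMLL1, 153.7 ± 10.1 in shUTX, 142.0 ± 12.2 in shNRF2 and 482.8 ± 64.9 in shControl (SD, n = 3 each). BASP1 was thus 2.73-fold lower in shMLL1 than in shControl (log2 -1.45 ± 0.08), 3.13-fold lower in shUTX (log2 -1.65 ± 0.10) and 3.39-fold lower in shNRF2 (log2 -1.76 ± 0.19).

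Among the 4 covered genes, all 4 had shMLL1 libraries wholly below shControl, all 4 had shUTX libraries below it, and 2, SEMA6B and BASP1, had shNRF2 libraries below it. These counts rest on the choice of the genes. How many of all entries lay wholly below shControl in the same way was not counted, so no rarity can be read from them. The shares that follow are of edgeR calls, a different measure. Over all 10800 entries tested, edgeR called 12.2% between shMLL1 and shControl (6.84% lower), 26.3% between shUTX and shControl (13.7% lower) and 5.33% between shNRF2 and shControl (2.56% lower). On the matched stretches, where the members lie, the shares were higher: 28% in shMLL1 (21.4% lower), 39.5% in shUTX (24.4% lower) and 9.43% in shNRF2 (5.29% lower) of 435 entries. The 3 sets of differences share the shControl libraries. Without the untreated shControl library, SEMA5A stood at log2 -2.62 in shMLL1, and SEMA6B and PTPRS at -3.35 and -2.23 in shUTX. SEMA6B then stood at -0.70 in shNRF2, and BASP1 at -1.48, -1.61 and -1.66 in shMLL1, shUTX and shNRF2. Each mean of 3 ratios loses 1 of them here. A shift below the SD over treatments was therefore bound to follow, apart from rescaling, and shows no stability. Removing a smooth trend of level with transcript length from each library, a correction added after seeing the data, gave log2 differences of -2.06 for SEMA5A and -0.54 for PTPRS in shMLL1, and of -1.29 and -1.32 for BASP1 in shMLL1 and shUTX.

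**Figure D2:**
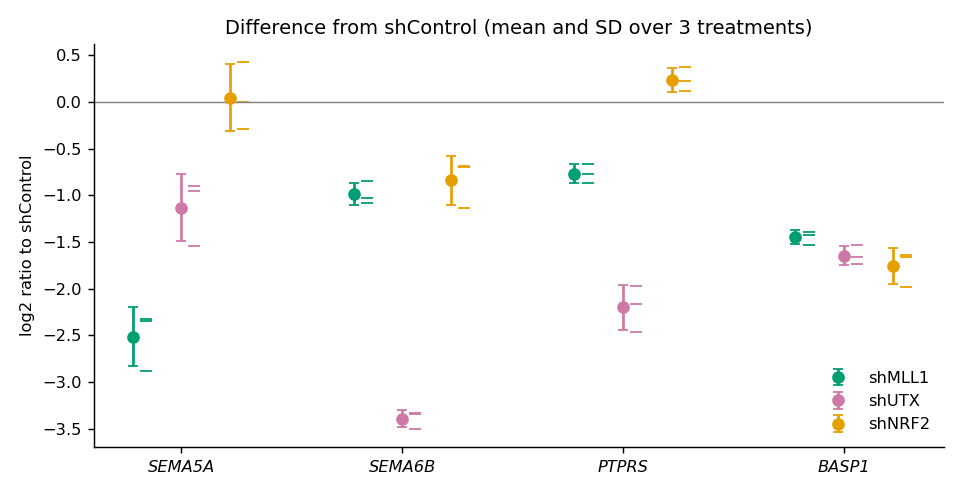
Log2 ratio of each knockdown derivative to shControl for the 4 covered genes; circles and bars are the mean and SD over 3 treatments, and short dashes the single treatments. SEMA6B in shUTX (log2 -3.39) lies farthest from 0, and SEMA5A and PTPRS in shNRF2 lie at 0.05 and 0.24.

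Exposure did not choose the genes, so it could be tested. Neither agent changed any of the 4 past an adjusted p of 0.05 in edgeR's quasi-likelihood test across the 4 derivatives with Benjamini-Hochberg adjustment. At an unadjusted p under 0.05, edgeR gave 2 of the 4 with H2O2 and 3 with CeO2, and DESeq2 called 0 with either. With H2O2 the log2 change was 0.39 ± 0.11 (SE) for SEMA5A (edgeR adjusted p = 0.141), -0.25 ± 0.10 for SEMA6B (0.218), 0.15 ± 0.07 for PTPRS (0.278) and -0.07 ± 0.08 for BASP1 (0.625). SEMA5A was higher with H2O2 than untreated in 4 of 4 derivatives and passed only when no filter on low counts was used (edgeR adjusted p = 0.0035, over a range of 0.0035 to 0.337 across settings). With CeO2 it was 0.29 ± 0.11 for SEMA5A (edgeR adjusted p = 0.238), -0.08 ± 0.10 for SEMA6B (0.719), 0.20 ± 0.07 for PTPRS (0.222) and -0.25 ± 0.08 for BASP1 (0.198). SEMA5A and PTPRS were higher and BASP1 lower with CeO2 in 4 of 4 derivatives, and with H2O2 PTPRS was higher and SEMA6B lower in 4 of 4. Some of these ratios to untreated lay close to 1, such as 1.02 for PTPRS with CeO2 in shUTX and 0.993 for SEMA6B with H2O2 in shNRF2. With the length trend removed, the CeO2 value of BASP1 was -0.09 and that of SEMA5A 0.18. Without the untreated shControl library, SEMA5A stood at 0.25 with H2O2 and 0.16 with CeO2 (edgeR adjusted p = 0.257 and 0.564), SEMA6B at -0.17 and 0.01, PTPRS at 0.14 and 0.20, and BASP1 at -0.05 and -0.22. Without the CeO2 library of shControl, SEMA5A stood at 0.13 with CeO2. Over all entries, edgeR called 0% with H2O2 (0 of 10800, with 2102 at an unadjusted p under 0.05 and 152 called by DESeq2) and 0.0185% with CeO2 (2 entries, with 1889 unadjusted and 44 by DESeq2).

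Within single derivatives, counting error allows a closer look, with 1 library on each side and no replicate. SEMA5A had an H2O2 to untreated ratio of 1.45 (95% interval 1.21 to 1.74, exact conditional binomial) in shMLL1, 1.38 (1.22 to 1.55) in shUTX, 1.07 (0.991 to 1.15) in shNRF2 and 1.43 (1.32 to 1.55) in shControl. Its CeO2 to untreated ratio was 1.16 (0.961 to 1.40) in shMLL1, 1.07 (0.945 to 1.21) in shUTX, 1.03 (0.959 to 1.10) in shNRF2 and 1.68 (1.56 to 1.82) in shControl. The CeO2 library of shControl thus held more SEMA5A than any other library, relative to an untreated library that stands apart. BASP1 had an H2O2 ratio of 0.839 (0.773 to 0.911) in shMLL1, 0.958 (0.871 to 1.05) in shUTX, 1.13 (1.035 to 1.24) in shNRF2 and 0.905 (0.864 to 0.948) in shControl, so shNRF2 lay on the other side of 1. For BASP1 the CeO2 ratio was 0.783 (0.722 to 0.849) in shMLL1, 0.878 (0.799 to 0.966) in shUTX, 0.966 (0.885 to 1.06) in shNRF2 and 0.763 (0.726 to 0.801) in shControl. PTPRS ratios ran from 1.02 to 1.25 over the 8 pairs of libraries. SEMA6B ratios ran from 0.732 to 1.16, with wide intervals in shUTX (0.518 to 1.27 with H2O2), where counts are few.

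**Figure D3:**
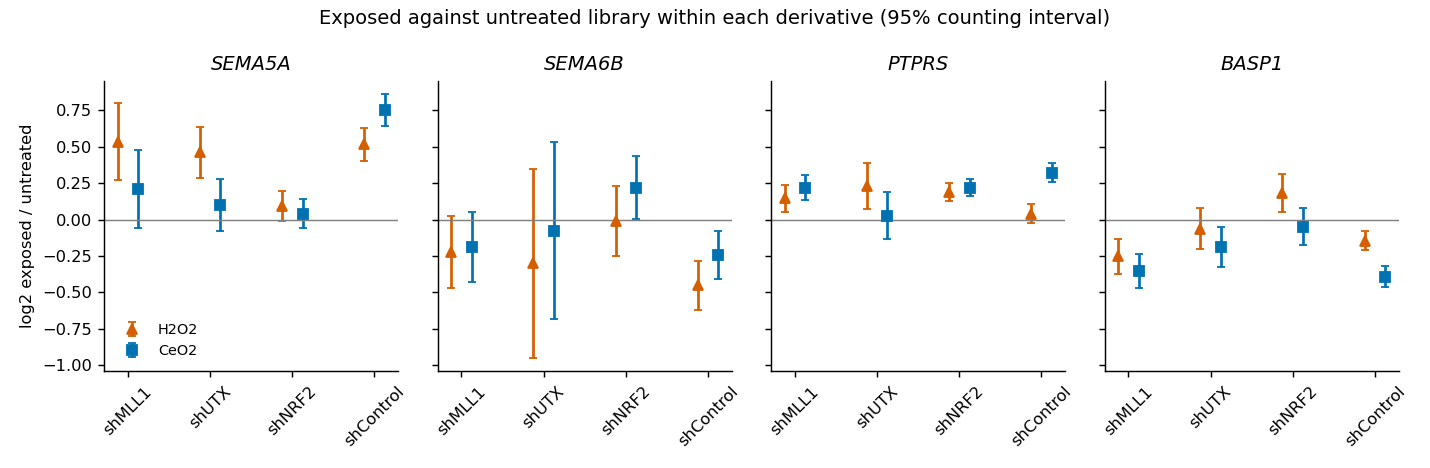
Log2 ratio of each exposed library to the untreated library of the same derivative (triangles H2O2, squares CeO2); bars are 95% counting intervals, with 1 library on each side. SEMA5A ratios in shNRF2 lie near 0 on the log2 scale (1.07 and 1.03 as ratios) and those in shControl lie at ratios of 1.43 and 1.68.

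A changed response, the response to either agent in a knockdown minus that in shControl, was fitted with 3 residual degrees of freedom and is exploratory. SEMA5A had a smaller response in shNRF2 than in shControl (log2 -0.57 ± 0.18 SE, edgeR adjusted p = 0.0319). In that comparison edgeR called 16.6% of all entries and 27.4% of the 435 on the matched stretches. The SEMA5A call was lost with DESeq2 (adjusted p = 0.123). It was also lost without the shControl CeO2 library (log2 -0.34, edgeR adjusted p = 0.0969), the shNRF2 H2O2 library (0.0732) or the shNRF2 CeO2 library (0.0635), and cannot be fitted without the untreated shControl library; with the length trend removed the value was -0.40. In shMLL1 the difference for SEMA5A was -0.26 ± 0.22 (edgeR adjusted p = 0.600; 0.648% of entries called) and in shUTX -0.36 ± 0.19 (0.247; 14.4% of entries called). Without the shControl H2O2 library the shUTX value was -0.57 (edgeR adjusted p = 0.00689). In shNRF2, SEMA6B had 0.45 ± 0.18 (edgeR adjusted p = 0.102), BASP1 0.33 ± 0.13 (0.0777) and PTPRS 0.02 ± 0.14 (0.957), and BASP1 passed without the shControl H2O2 library (log2 0.38, edgeR adjusted p = 0.0222). With the length trend removed, BASP1 turned to -0.18 and SEMA6B came to 0.18.

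The surroundings of each gene were compared next, for derivatives against shControl. Near SEMA6B, 22 coding genes within 500 kb were tested. In shUTX, 9 of them were lower and 2 higher, with a median log2 change of -0.33, where 28.85% of the chromosome 19 stretch and 13.7% of all entries were lower; in shMLL1, 2 were lower and 1 higher (median -0.03), and in shNRF2 edgeR and DESeq2 both called 0 (median -0.06, with 3 at an unadjusted edgeR p under 0.05). The nearest on the left, LRG1, a secreted glycoprotein gene 2119 bp away, fell in shUTX (log2 -2.08 ± 0.16 SE, edgeR adjusted p = 7.26e-07), with 18.9 CPM in shUTX against 79.9 CPM in shControl. The nearest on the right, TNFAIP8L1, 79710 bp away, fell too (log2 -1.45 ± 0.09, edgeR adjusted p = 7.78e-08). PLIN4, a perilipin of lipid droplets, had the lowest value of the 22 (log2 -2.42, edgeR adjusted p = 0.00019) and was picked out after its value was seen. Neither LRG1 nor TNFAIP8L1 passed in shMLL1 or shNRF2, where SEMA6B itself was at log2 -0.99 and -0.84. Without the untreated shControl library, 8 of the 22 were lower in shUTX and 3 higher, and over all settings the lower count ran from 7 to 12.

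**Figure D4:**
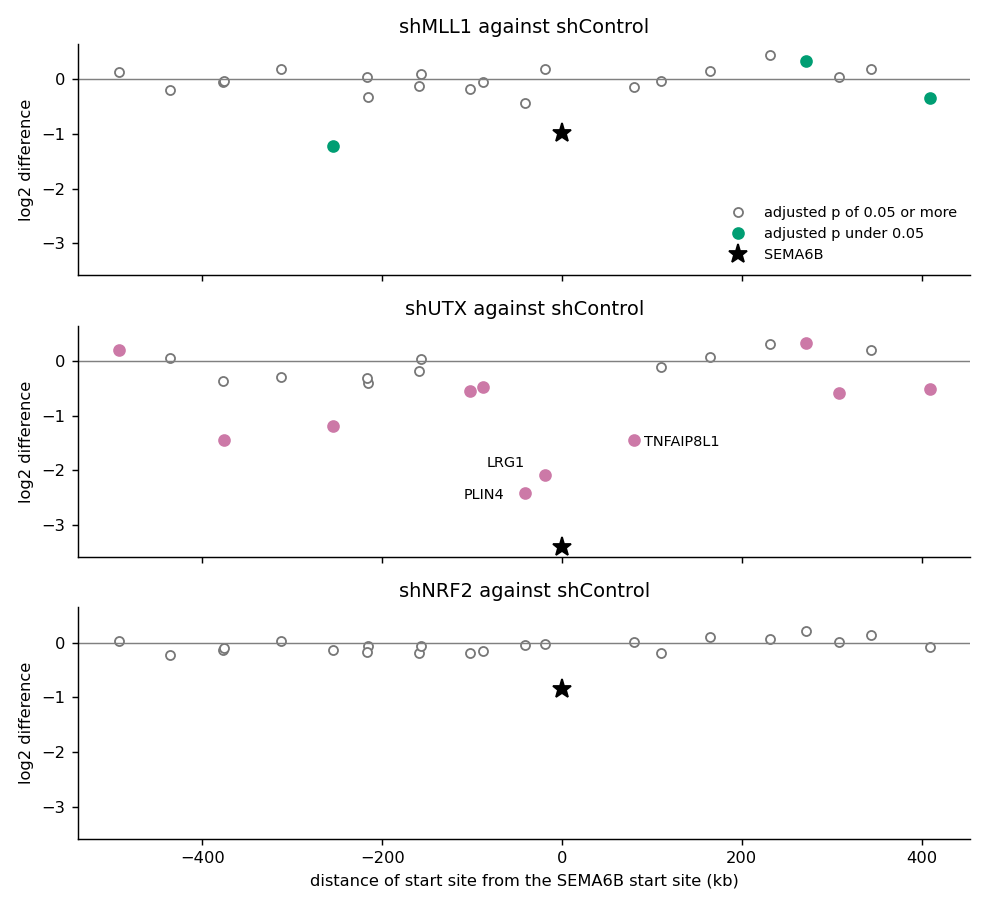
Log2 difference from shControl of the 22 coding genes within 500 kb of SEMA6B, by distance of their start site in kb, for shMLL1, shUTX and shNRF2; filled points passed edgeR's test, open points did not, and the star is SEMA6B, which has no test. In shUTX, LRG1 (log2 -2.08), PLIN4 (-2.42) and TNFAIP8L1 (-1.45) lie low near SEMA6B, as do FSD1 (-1.185) and ANKRD24 (-1.441) farther away. In shNRF2 edgeR called 0 of the 22.

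PTPRS, in the same stretch, had 17 tested coding neighbours within 500 kb, with 2 lower and 2 higher in shUTX (median log2 0.04). KDM4B, a histone demethylase gene 4900 bp to its left, was lower in shUTX (log2 -0.50 ± 0.09, edgeR adjusted p = 0.000787), and TINCR, a gene of epidermal differentiation 217364 bp to its right, was higher (log2 2.52 ± 0.18, edgeR adjusted p = 2.61e-07). Neither change was confined to shUTX. TINCR was also higher in shMLL1 (log2 1.93, edgeR adjusted p = 7.71e-06) and shNRF2 (3.35, 5.53e-08). KDM4B was also lower in shMLL1 (log2 -0.34, edgeR adjusted p = 0.0205) but not called in shNRF2 (-0.08, 0.674). Over the whole chromosome 19 stretch (867630 to 6393981, 156 entries without the members), 45 were lower in shUTX and 9 higher, with a median of -0.18. Without the untreated shControl library, 37 of 154 were lower and 19 higher, and of 16 neighbours of PTPRS 2 were lower and 5 higher.

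On chromosome 5, where SEMA5A and BASP1 lie, many other entries were lower in shMLL1. Of 135 entries tested from 218241 to 44820428, members left out, 66 were lower (48.9%) and 8 higher, with a median log2 of -0.44, against 6.84% lower over all 10800 entries. The same entries had 18 lower and 30 higher in shUTX (median 0.07), and 6 lower and 6 higher in shNRF2 (median -0.04). Across settings the lower count in shMLL1 ran from 52 to 70, with 70 when the untreated shControl library was left out; then 20 were lower and 39 higher in shUTX, and 9 lower and 6 higher in shNRF2. No coding gene within 500 kb of SEMA5A passed the filter. Its nearest, MTRR 1129001 bp to the left and ATPSCKMT 680255 bp to the right, had log2 changes of -0.36 ± 0.08 and -0.93 ± 0.13 in shMLL1 (edgeR adjusted p = 0.00627 and 0.000178). In shUTX, MTRR was higher (log2 0.58 ± 0.08, edgeR adjusted p = 7.62e-05), where SEMA5A was at -1.13. BASP1 had 2 such neighbours, RETREG1 and MYO10, both lower in shMLL1 (log2 -1.04 and -0.56; edgeR). In shUTX, where BASP1 was at log2 -1.65, RETREG1 was lower too (log2 -0.50) and MYO10 stood at 0.07. In shNRF2, where BASP1 was at log2 -1.76, they stood at -0.03 and -0.12.

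Other genes of these and related families were looked for among 163 listed ones: semaphorins, plexins, neuropilins, ephrins, Eph receptors, netrins, slits, receptor phosphatases and partners, growth cone effectors, and neurotrophic factors and neuronal cadherins. The last list, with 12 of its 17 genes on the matched stretches, also held genes that are neither, among them SLC1A3, DAB2 and NFIC. Counts below are therefore counts of listed genes, not of axon guidance families. Apart from the 5 members, 20 lie on the matched stretches and 11 of these passed the filter; none of the 11 is a semaphorin, plexin, ephrin or Eph receptor, so the partners of the members could not be read. In shMLL1, 6 of the 11 fell and none rose in edgeR's test (1 was higher at an unadjusted p under 0.05), as with DESeq2, with a median log2 of -0.56, against -0.09 over all matched entries. All 6 lie on chromosome 5, where 48.9% of the other entries were lower as well, and 21.4% of all matched entries were lower. TRIO, a guanine exchange factor that works downstream of receptor phosphatases and netrin receptors, fell by 0.85 ± 0.12 on the log2 scale (359 CPM in shMLL1 against 655 CPM in shControl, edgeR adjusted p = 0.000268). MYO10, a myosin of filopodia, fell by 0.56 ± 0.09 (edgeR adjusted p = 0.000662), SLC1A3, a glutamate transporter, by 0.56 ± 0.08, and LIFR, a receptor of neurotrophic cytokines, by 1.09 ± 0.14.

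CDH10, a cadherin of neurons, and DAB2, an endocytic adaptor, fell as well but at low counts. CDH10 had 1, 1 and 4 counts with H2O2, with CeO2 and untreated in shMLL1, against 60, 38 and 38 in shControl, a fitted log2 change of -4.28 ± 0.43 (edgeR adjusted p = 1.22e-05). DAB2 had 3, 3 and 0 counts in shMLL1 against 13, 14 and 15 in shControl (edgeR adjusted p = 0.0163), and its call was lost without the H2O2 or the untreated shMLL1 library (highest adjusted p 0.0835). CDH10 was also lower in shUTX, with 18, 9 and 10 counts (log2 -1.57 ± 0.31, edgeR adjusted p = 0.00166), and in shNRF2, with 8, 13 and 12 (log2 -1.98 ± 0.31, edgeR adjusted p = 0.00151), so with BASP1 and SEMA6B it was below shControl in all 3 derivatives.

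In shUTX, 4 of the 11 fell and none rose by edgeR or DESeq2 (1 was higher at an unadjusted edgeR p under 0.05), with a median of -0.02 against -0.07 over all matched entries: CDH10, TLN1 (talin, log2 -0.34 ± 0.08), STK11 (a kinase of cell polarity, -0.33 ± 0.10) and SLC1A3 (-0.28 ± 0.08). Of all matched entries, 39.5% were called in shUTX (24.4% lower), so this count is no result particular to the listed genes. Without the untreated shControl library 3 of 10 fell, and with only the libraries of shUTX and shControl in the fit 1 of 10 fell. In shNRF2, CDH10 alone was called by edgeR, and 2 genes were called by DESeq2 or without the untreated shControl library, with a median of -0.18 against -0.07 over all matched entries. TRIO stood there at log2 -0.39 ± 0.12 (edgeR adjusted p = 0.077), and STK11 at -0.18 ± 0.10. With H2O2 and with CeO2, edgeR and DESeq2 called 0 of the 11, and 3 and 2 had an unadjusted edgeR p under 0.05.

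**Figure D5:**
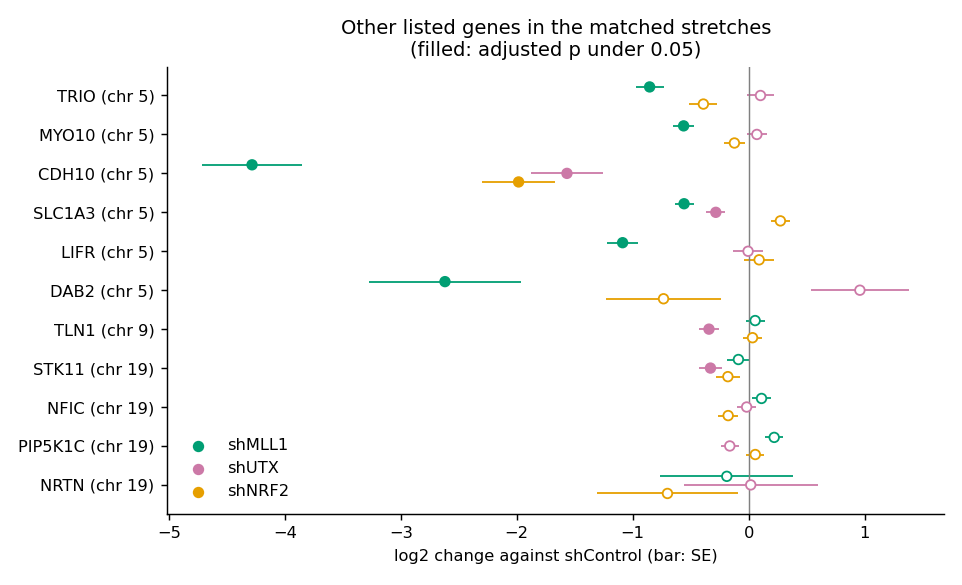
Log2 change against shControl with SE for the 11 other listed genes on the matched stretches, for shMLL1, shUTX and shNRF2; filled points have an edgeR adjusted p under 0.05. In shMLL1 the 6 genes on chromosome 5 lie below 0 and pass, and the 5 on chromosomes 9 and 19 do not pass.

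Across the 12 libraries the 4 covered genes did not share a single pattern. Pearson's r of log2 levels was 0.911 for SEMA6B with PTPRS, 0.601 for SEMA6B with BASP1, 0.502 for SEMA5A with PTPRS, 0.350 for PTPRS with BASP1, 0.323 for SEMA5A with BASP1 and 0.283 for SEMA5A with SEMA6B. These values describe 12 libraries from 4 derivatives in which the 3 libraries of a derivative share its cells. Of 348 entries on the matched stretches with at least 5 CPM, the most similar to SEMA5A were MYORG (r 0.959), ENSG00000248994 (0.955) and ANKH (0.939). The most similar to SEMA6B were BTBD2 (0.972), TNFAIP8L1 (0.954) and ARHGAP45 (0.945), of which TNFAIP8L1 is its neighbour on the right. PTPRS was followed by FYB1 (0.979), IL7R (0.968) and ABCA7 (0.962). BASP1 had the least similar set, with RFX2 (0.905), CA9 (0.891) and TPM2 (0.879). CA9, the hypoxia-induced carbonic anhydrase, averaged 2.23 CPM in shMLL1, 0.958 in shUTX, 5.38 in shNRF2 and 48.4 in shControl. It was picked for its high r with BASP1, so being lower in each knockdown derivative, like BASP1, is no separate finding.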

How the data were processed

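The submitters' processing notes name HTSeq 0.11.1, HISAT2 2.2.1, Trimmomatic 0.39, SAMtools 1.12 and the GRCh38 build; for settings, annotation and use of strand, the sources used here give nothing. The authors deposited 2 tables with a raw read count for each of 61498 Ensembl genes, one per agent, both with the untreated libraries; for the untreated libraries the H2O2 table was used, and the tables differ in 1 cell. Groups came from the labels.

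The 10800 entries that reached 1 CPM in 3 or more libraries were scaled by TMM and fitted with edgeR 4.0.16 in R 4.3.3 (quasi-likelihood, two-sided, Benjamini-Hochberg at 0.05). The model held both factors, derivative and treatment, leaving 6 residual degrees of freedom; the changed response added knockdown by exposure. Differences of the members between derivatives are means of log2 ratios at matched treatments. Names were read on 4 stretches, found with a hidden Markov model of 2 states over housekeeping genes at 30 CPM. Lengths and coordinates came from GENCODE 29. Scripts were tested on simulated data. The members, gene lists, stretch rule and tests were chosen with earlier results of these data known. Named genes were the members, listed genes called in a knockdown contrast (with TRIO, MYO10 and STK11 always), each member's nearest tested coding gene on each side and the 3 entries most similar to it. Alternatives were RLE scaling, no filter, DESeq2 1.42.0, the other table's untreated counts, the compared libraries only, each library left out, and removal of the length trend.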

Additional observations from a re-analysis of the deposited data

Results flagged for a closer look

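The response of SEMA5A to exposure differed between shNRF2 and shControl by the test of the difference itself (log2 -0.57 ± 0.18 SE, edgeR adjusted p = 0.0319). Such calls were common, at 16.6% of all entries and 27.4% of the 435 on the matched stretches. SEMA5A had 230.5, 222.1 and 216.1 normalised CPM with H2O2, with CeO2 and untreated in shNRF2, and 230, 270.4 and 160.8 CPM in shControl. The untreated shControl library, which stands apart from the other shControl libraries, is the lowest of these 6. Its part in the difference was not tested, since the model cannot be fitted without it. The difference passed in 8 of the 12 alternative settings that gave a p, but this count overstates how well it held. The other table's untreated counts gave the same value. Further passes only left out a library of shMLL1 or shUTX, which are not the derivatives compared. The call was lost with DESeq2, and without the shControl CeO2, the shNRF2 H2O2 or the shNRF2 CeO2 library.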

How the results depend on the processing

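With 1 library for each combination, depth and the number of libraries limit what could be called. The labels give no replicate numbers, so libraries could not be paired by culture or batch. Terms for derivative and treatment already set libraries against others of the same derivative or treatment, and member differences are ratios at matched treatments. No difference of a member from shControl that exceeded its SD changed sign among 216 alternative values. Most of these could hardly do so, and the tally says little about stability. Leaving out a library takes away at most 1 of the 3 ratios behind a difference, and the other table differs in 1 cell. Of the 216, 5, all with the length trend removed, moved by more than the SD between treatments. These were SEMA5A -2.06, PTPRS -0.54 and BASP1 -1.29 in shMLL1, and SEMA6B -3.27 and BASP1 -1.32 in shUTX. Of 136 alternative values with a p for the exposure effects, 134 kept direction and side of the threshold, as did 123 of 142 for the changed responses. Where a cause is not named, the cause was not tested.

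The number of entries called moved most. With no filter, 651 were called for H2O2, 543 for CeO2, 907 for shNRF2 and 218 for the changed response in shMLL1. DESeq2 called 152 for H2O2, 44 for CeO2, 676 for the changed response in shUTX and 686 for that in shNRF2. With only the compared libraries, and so fewer samples, 3 were called for H2O2, 0 for CeO2, 1427 for shUTX and 154 for shNRF2. Leaving out 1 library at a time gave 0 to 43 for H2O2, 0 to 29 for CeO2, 667 to 1941 for shMLL1, 1931 to 3088 for shUTX, 257 to 830 for shNRF2, and 4 to 676, 822 to 2102 and 1317 to 2327 for the changed responses in shMLL1, shUTX and shNRF2.

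Some values turned sign, most of them near 0. For PTPRS the changed response in shMLL1 (-0.00234 with the reported settings) was 0.00827 with RLE scaling and 0.007996 with DESeq2, and that in shNRF2 was -0.0244 with no filter. Leaving out 1 library gave PTPRS -0.14 to 0.15 in shMLL1, -0.21 to 0.12 in shUTX and -0.12 to 0.17 in shNRF2, BASP1 -0.0867 to 0.0177 in shMLL1, and SEMA6B -0.18 to 0.00753 with CeO2. With the length trend removed, BASP1 was 0.0616 with H2O2, SEMA6B 0.0205 with CeO2, and the changed responses were -0.0338 (shMLL1) and -0.11 (shUTX) for SEMA6B and -0.31 (shUTX) and -0.18 (shNRF2, 0.33 ± 0.13 with the reported settings) for BASP1. The changed response could not be fitted without an untreated library of the derivatives it compares.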
